A study of Mus musculus with 46 samples.

Results

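The growth hormone and IGF1 axis was examined in mouse liver through 9 genes: Ghr, Stat5b, Cish, Socs2, Igf1, Igfals, Igfbp1, Igfbp2 and Igfbp3. They were chosen by name from the 55487 genes listed for each library, and all 9 had enough reads to be among the 17024 genes tested. The values are RNA levels from 13 liver libraries. Of these, 6 were labelled control, 4 Mfn DKO and 3 Tfam KO, and the labels call the samples of a group biological replicates. The study's title asks how signals sent out by mitochondria govern identity and maturity of metabolic tissues. Mfn1 and Mfn2 encode the mitofusins, which join the outer membranes of mitochondria, and Tfam encodes a protein that packages mitochondrial DNA and is needed for its transcription. The sample descriptions of all 3 groups, control included, carry the letters AAV, the usual abbreviation for adeno-associated virus. The vector, its promoter, the floxed alleles, and the strain, age and sex of the liver donors are not given in the sources used here. Whether each replicate was a separate animal is not stated beyond that label, so p-values measure the spread between these samples.

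Growth hormone from the pituitary binds its receptor, GHR, on hepatocytes, and the receptor-bound kinase JAK2 then activates STAT5B, which enters the nucleus and switches on genes including Igf1, Igfals, Cish and Socs2. IGF1 leaves the liver for the blood, where most of it travels in a complex with IGFBP3 and the acid-labile subunit encoded by Igfals. CISH and SOCS2 are made in response to the signal and damp it. IGFBP1 and IGFBP2 carry IGF1 outside that complex, and Igfbp1 is known for rising in fasting, when insulin is low, through FOXO factors, and under cellular stress through ATF4.

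Promoters of 8 of the 9 genes were found in the RefSeq table (build GRCm38.p6), 13 in all, since some genes have several start sites. Socs2 was not matched. Each runs from 250 bases before the start site to 50 after it. Both strands were searched for TTCNNNGAA, the STAT5 consensus, for GTAAACA and CAAAACA, which FOXO factors bind, and for TGATGNAA, a form of the element that ATF4 binds with a C/EBP partner. Matches were present in 4 promoters, which belong to Cish, Igfals and Igfbp1, and 3 of these are shown because those genes carry results given below. Capitals mark the matches, and all sequences read 5′ to 3′ on the strand of the gene.
Cish, chr9:107296409-107296708, plus strand: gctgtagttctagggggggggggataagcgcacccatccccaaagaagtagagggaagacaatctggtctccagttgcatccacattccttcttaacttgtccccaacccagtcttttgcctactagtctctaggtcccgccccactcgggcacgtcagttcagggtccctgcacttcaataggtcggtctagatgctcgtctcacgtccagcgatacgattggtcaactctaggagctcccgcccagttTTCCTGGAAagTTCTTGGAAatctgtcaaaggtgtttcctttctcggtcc
Igfals, chr17:24877981-24878280, plus strand: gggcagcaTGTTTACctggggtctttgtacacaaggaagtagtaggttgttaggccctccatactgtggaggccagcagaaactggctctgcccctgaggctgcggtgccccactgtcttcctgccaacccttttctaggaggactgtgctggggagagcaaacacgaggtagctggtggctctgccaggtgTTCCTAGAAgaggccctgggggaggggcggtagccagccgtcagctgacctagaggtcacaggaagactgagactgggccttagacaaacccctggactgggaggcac
Igfbp1, chr11:7197537-7197836, plus strand: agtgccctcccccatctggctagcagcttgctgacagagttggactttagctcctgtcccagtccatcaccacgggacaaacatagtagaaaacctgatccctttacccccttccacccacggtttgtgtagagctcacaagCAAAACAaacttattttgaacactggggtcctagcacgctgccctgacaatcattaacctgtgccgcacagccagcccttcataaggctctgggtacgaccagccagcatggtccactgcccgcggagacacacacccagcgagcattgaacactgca
The Cish window held 2 copies of TTCNNNGAA, which begin at bases 1 and 12 counted from the start site. The Igfals window held 1 copy at base -58, and 1 reverse-strand GTAAACA, printed as its complement, at base -242. A second Igfals start site, at chr17:24877594-24877893, had 1 TTCNNNGAA at base -236. The Igfbp1 window held 1 CAAAACA at base -108. Of 32851 RefSeq promoters of this length, 8.3% held TTCNNNGAA, 3.65% GTAAACA, 6.28% CAAAACA and 3.97% TGATGNAA. Such a match describes the sequence and does not show that a factor was bound.

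Total counts per library ran from 41961114 to 56894510. Levels are given as CPM, counts divided by a library size that the TMM method scales, and differences as log2 fold changes with standard errors (SE) and adjusted p-values from edgeR's quasi-likelihood test, with Benjamini-Hochberg adjustment across the 17024 genes. The word called is kept for differences whose adjusted p did not exceed 0.05. The targeted genes went with their labels: Tfam was at 14.7 ± 1.43 CPM (SD, n = 3) in Tfam KO against 58.9 ± 4.02 (n = 6) in control, and in Mfn DKO Mfn1 was at 20.2 ± 4.30 CPM (n = 4) against 80.8 ± 7.58 and Mfn2 at 38.1 ± 5.35 against 156.7 ± 28.4. In Mfn DKO against control, 9.87% of genes were called, 5.23% higher and 4.64% lower. In Tfam KO against control, 29.3% were called, 18.1% higher and 11.3% lower. Tfam KO replicate 2 stood apart from the other libraries: its median correlation with them was 0.8915, against 0.9423 to 0.9693 for the others. The summed level of 10 hepatocyte markers was 25610 CPM in that library, 63800 and 99700 in the other Tfam KO libraries, and 97520 to 140400 in control. The median of all genes lay near 0 under TMM scaling, but under total-count scaling at 0.21 in Mfn DKO and 0.46 in Tfam KO, and that scaling moved the called genes from 891 higher and 790 lower to 1653 and 356 in Mfn DKO, and from 3073 and 1919 to 7250 and 904 in Tfam KO. Results that depend on that library or on the scaling are marked where they occur.

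In both knockouts the damping gene Cish fell and the binding protein gene Igfbp1 rose. Among the 9 genes, 2 were called in Mfn DKO against control, Igfbp1 higher and Cish lower, where 9.87% of all genes were called. In Tfam KO against control 4 were called, with Igfbp1 higher and Cish, Ghr and Igfals lower, where 29.3% of all genes were called. The median log2 fold change of the 9 genes was -0.45 in Mfn DKO and -0.54 in Tfam KO, against 0.02 and 0.03 over all genes tested. Both comparisons used the same 6 control libraries, so they are not independent of each other. Where a gene is said below not to overlap with control, the share of all genes that did the same was not determined.

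**Figure D1:**
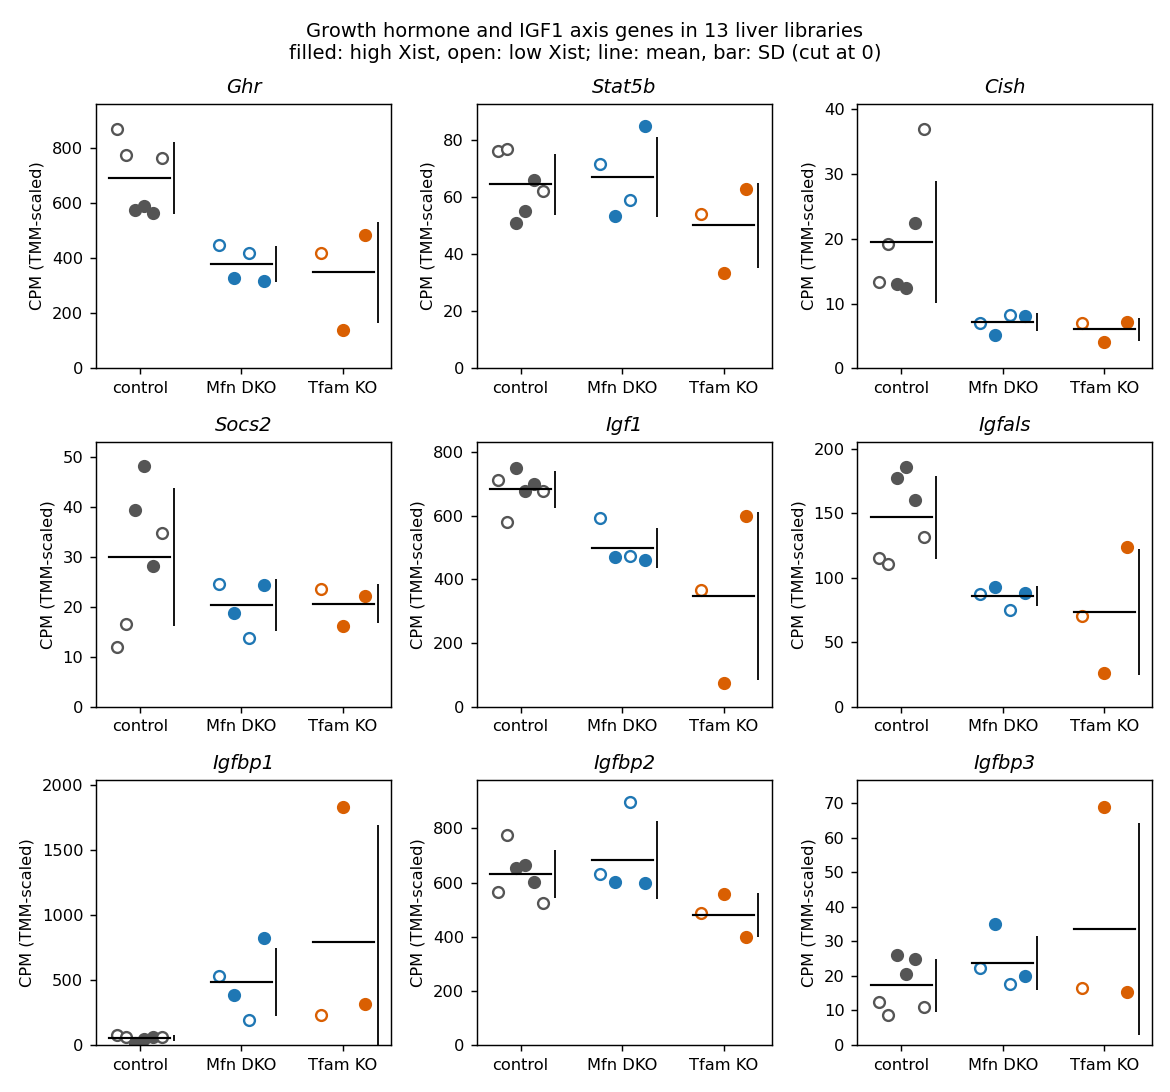
CPM on TMM-scaled library sizes (vertical axes, from 0) of the 9 genes in 6 control, 4 Mfn DKO and 3 Tfam KO liver libraries, 1 point per library (filled, high Xist; open, low Xist), with group mean (line) and SD (bar, not drawn below 0). All Mfn DKO and Tfam KO points lie below all control points for Ghr and Cish, and above them for Igfbp1; the Tfam KO library lowest for Ghr, Igf1 and Igfals and highest for Igfbp1 is replicate 2.

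Ghr, the receptor gene (chr15:3317760-3583492, minus strand, GRCm38), was lower in every library of both knockouts than in any control library. In control it ran from 564.1 to 871.1 CPM with a median of 678.5. The Mfn DKO libraries had 449.3, 327.8, 417.6 and 318.6 CPM, and the Tfam KO libraries 421.0, 140.7 and 484.9. The log2 fold change was -0.99 (SE 0.32, edgeR adjusted p = 0.0356) in Tfam KO and -0.87 (SE 0.29, adjusted p = 0.0725) in Mfn DKO, so only the first passed the threshold. Neither call was firm. In Tfam KO the adjusted p ran from 0.0073 to 0.0814 over 21 alternatives, and it missed the threshold without control replicate 1 (0.0632), 2 (0.0584) or 6 (0.0594), without Tfam KO replicate 1 (0.057) or 2 (0.0654), where the log2 fold change was -0.61, with total-count scaling (0.0593, log2 fold change -0.64), with a replicate block (0.0814) and in the fit of only the 2 groups compared (0.0755). In Mfn DKO it passed in 5 of 21 alternatives, without Tfam KO replicate 3 among them (0.0413). Another was the fit without Tfam KO replicate 2, with almost the same log2 fold change of -0.87 and a smaller SE of 0.16 (adjusted p = 0.00381, range 0.00254 to 0.173). On the authors' TPM scale, which is not TMM-scaled, the Tfam KO values of 145.4, 64.67 and 144.1 overlapped the control range of 136.3 to 196.2.

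Stat5b, the gene of the transcription factor (chr11:100780731-100850724, minus strand), was not called in either knockout. It ran from 50.94 to 76.74 CPM in control, from 53.33 to 84.87 in Mfn DKO, and was 54.08, 33.54 and 62.63 in Tfam KO. The ranges overlapped. The log2 fold changes were 0.06 (SE 0.19, edgeR adjusted p = 0.867) and -0.37 (SE 0.21, adjusted p = 0.203). The second turned to 0.02 with total-count scaling and was -0.14 without Tfam KO replicate 2, and the first turned to -0.01 without control replicate 3 and -0.09 without Mfn DKO replicate 4.

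Cish, an early target of STAT5 whose product damps the receptor's signal (chr9:107296026-107302784, plus strand), fell in both knockouts. The control libraries ranged from 12.33 to 36.87 CPM with a median of 16.21. The Mfn DKO libraries had 7.051, 5.14, 8.269 and 8.02 CPM, and the Tfam KO libraries 6.93, 3.999 and 7.178. No library of either knockout reached the lowest control, and the same held in TPM. The fall was 2.74-fold in Mfn DKO (log2 fold change -1.45, SE 0.32, edgeR adjusted p = 0.0151) and 3.24-fold in Tfam KO (log2 fold change -1.69, SE 0.36, adjusted p = 0.0055). The Mfn DKO call missed the threshold without Mfn DKO replicate 1 (0.0509) or 2 (0.0544), within a range of 0.000172 to 0.0968 over 21 alternatives. Without Tfam KO replicate 2 the Tfam KO log2 fold change was -1.47 (adjusted p = 0.0288, range 2.37e-05 to 0.0528). Antisense transcripts Gm17040 and Gm17041 overlap Cish. Each had at most 58 counts in a library, and whether counting used strand is not given in the sources used here.

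Socs2, the other damping gene (chr10:95385362-95417180, minus strand), did not pass in either knockout. Its control values were widely spread, from 11.96 to 48.24 CPM with a median of 31.57. All 4 Mfn DKO values (13.75 to 24.54) and all 3 Tfam KO values (23.48, 16.17 and 22.25) lay inside that range. The log2 fold changes were -0.55 (SE 0.34, edgeR adjusted p = 0.305) and -0.54 (SE 0.37, adjusted p = 0.292). Over the 13 libraries, deviations of log2 CPM from the group means of Cish and Socs2 had a Pearson r of 0.12 (permutation p = 0.766, adjusted over 3 gene pairs 0.766) and a Spearman rho of -0.06 (permutation p = 0.879, adjusted 0.879). Without the 2 libraries farthest from the median of Cish, control replicates 4 and 6, r was 0.18. It was -0.14 among the 7 libraries with high Xist, described further on, and 0.69 among the 6 with low Xist.

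Igf1, the hormone gene (chr10:87858265-87937042, plus strand), was not called in either knockout. In control it ran from 579.2 to 751.6 CPM with a median of 690.2. The Mfn DKO libraries had 593.5, 470.8, 473.5 and 460.0 CPM, so 3 of 4 lay below every control, but in TPM only 1 of 4 did. The Tfam KO libraries had 368.0, 75.23 and 600.8 CPM, a span that reached from replicate 2, the lowest of all 13, into the control range. In TPM replicate 3, at 163.2, was just above the highest control at 162.5. The log2 fold change was -0.45 in Mfn DKO (SE 0.38, edgeR adjusted p = 0.458) and -0.97 in Tfam KO (SE 0.43, adjusted p = 0.0995). Leaving out Tfam KO replicate 2 gave -0.45 in Mfn DKO (SE 0.14, adjusted p = 0.0401, range 0.00629 to 0.606 over 21 alternatives) and -0.50 in Tfam KO (SE 0.18, adjusted p = 0.0851, range 0.00899 to 0.181). Leaving out Tfam KO replicate 3, the highest of its group, brought Tfam KO to -1.64 and past the threshold (adjusted p = 0.00899). The antisense gene Igf1os overlaps Igf1 and had at most 271 counts in a library.

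Igfals, which encodes the acid-labile subunit (chr17:24865997-24882010, plus strand), was lower in all 4 Mfn DKO libraries and in 2 of 3 Tfam KO libraries than in any control; in TPM this held for 3 of 4 and 2 of 3. Control ran from 111.0 to 185.7 CPM with a median of 145.8. Mfn DKO had 87.67, 92.89, 74.95 and 88.18 CPM, and Tfam KO 70.17, 26.16 and 123.7. The log2 fold change of -1.002 in Tfam KO passed the threshold narrowly (SE 0.36, edgeR adjusted p = 0.049), and that of -0.77 in Mfn DKO missed it (SE 0.32, adjusted p = 0.134). The Tfam KO call was lost in 16 of 21 alternatives (adjusted p 0.00196 to 0.128), including 12 of the 13 that left out 1 library, the exception being Tfam KO replicate 3. Without replicate 2 the Tfam KO log2 fold change was -0.60 (adjusted p = 0.114). The Mfn DKO difference passed without Tfam KO replicate 2 (log2 fold change -0.77, SE 0.19, adjusted p = 0.0141, range 0.00415 to 0.304) and without replicate 3 (0.0427). Without replicate 2, then, 5 of the 9 genes were called in Mfn DKO (Igfbp1, Cish, Ghr, Igf1 and Igfals) and 2 in Tfam KO (Igfbp1 and Cish). Over all genes the same fit moved the count in the same directions, from 1681 to 3379 in Mfn DKO and from 4992 to 2504 in Tfam KO.

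Lower hepatocyte marker levels moved with the low values of Tfam KO replicate 2. Among 9858 genes with a mean of at least 5 CPM, the gene whose deviations from the group means were most like those of Igfals was Alb, which encodes albumin (r = 0.99, n = 13), and those most like Igf1 and Ghr were Enpep (r = 0.996) and Ptprd (r = 0.992). Igf1 and Igfals deviated together with r = 0.91 (permutation p = 0.0211, adjusted over 3 pairs 0.0632) and rho = 0.62 (permutation p = 0.0885, adjusted 0.195). The relation rested on Tfam KO replicates 2 and 3, without which r was 0.40. For Ghr and Igf1, r was 0.87 (permutation p = 0.071, adjusted 0.106) and rho 0.59 (permutation p = 0.13, adjusted 0.195), and r was 0.10 without the same libraries. Within the libraries with high Xist (n = 7) and low Xist (n = 6), r was 0.99 and 0.92 for Igf1 with Igfals and 0.98 and 0.82 for Ghr with Igf1. The set with high Xist holds both Tfam KO replicates 2 and 3. Deviations in both sets were taken from the means of whole groups, replicate 2 included, so these values do not stand apart from that library. In bulk liver, fewer hepatocytes and less of these RNAs per hepatocyte cannot be told apart.

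**Figure D2:**
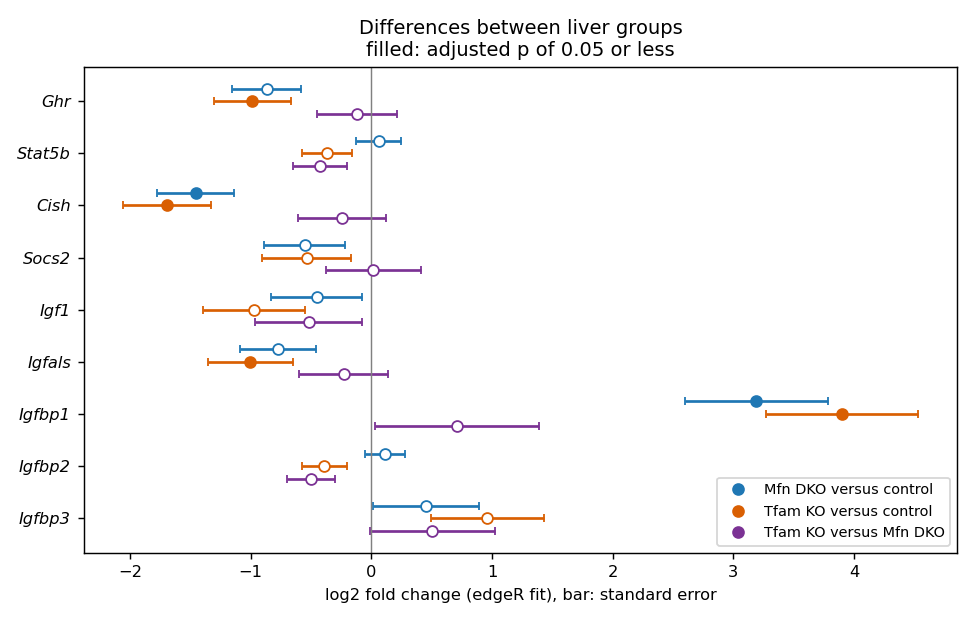
Log2 fold changes (horizontal axis) with standard errors for the 9 genes in the 3 comparisons between liver groups; filled points mark called differences. Igfbp1 lies at 3.19 and 3.90 against control, Cish at -1.45 and -1.69, and no gene is filled for Tfam KO against Mfn DKO.

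Igfbp1 (chr11:7197782-7202546, plus strand) rose most of the 9 genes in both knockouts. The control libraries had 15.55 to 77 CPM with a median of 58.45. The Mfn DKO libraries had 532.2, 386.6, 193.5 and 818.8 CPM, and the Tfam KO libraries 230.4, 1827 and 311.3, all above every control. The rise was 9.13-fold in Mfn DKO (log2 fold change 3.19, SE 0.59, edgeR adjusted p = 0.00674) and 14.9-fold in Tfam KO (log2 fold change 3.90, SE 0.63, adjusted p = 0.0016). The Tfam KO call held in all 21 alternatives (adjusted p 1.08e-08 to 0.0446), but its size depended on replicate 2, without which the log2 fold change was 2.36 (SE 0.47, adjusted p = 0.00868). In Mfn DKO the log2 fold change ran from 2.79 to 3.45 when single libraries were left out, past the threshold each time. Of the 21 alternatives, only the replicate block lost that call (adjusted p = 0.0514, range 6.47e-07 to 0.0514).

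Igfbp2 (chr1:72824503-72852474, plus strand) was the most abundant of the 9 in control per gene length, in TPM, and was not called in any comparison. It ran from 523.7 to 775.8 CPM in control, from 597.8 to 897.9 in Mfn DKO, and was 489.0, 558.9 and 397.0 in Tfam KO. All 3 Tfam KO values lay below all 4 Mfn DKO values, but the difference did not pass (log2 fold change -0.50, SE 0.20, edgeR adjusted p = 0.189). Against control the log2 fold changes were 0.11 (SE 0.17, adjusted p = 0.691) in Mfn DKO and -0.39 (SE 0.19, adjusted p = 0.129) in Tfam KO, and the first turned to -0.05 without Mfn DKO replicate 3 and the second to 0.07 with total-count scaling.

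Igfbp3, the partner of Igfals in the circulating complex (chr11:7206086-7213923, minus strand), lies tail to tail with Igfbp1, and 3539 bases separate their ends. Unlike its neighbour it was not called. Control libraries ran from 8.636 to 26.19 CPM, Mfn DKO libraries had 22.4, 34.94, 17.59 and 19.93, and Tfam KO libraries 16.48, 69.08 and 15.32. Only 1 library of each knockout lay above all controls, and in Tfam KO it was replicate 2. The log2 fold changes were 0.46 (SE 0.44, edgeR adjusted p = 0.526) and 0.96 (SE 0.47, adjusted p = 0.139). The second turned to -0.12 without Tfam KO replicate 2, and passed the threshold at 1.52 with total-count scaling (adjusted p = 0.027, range 0.027 to 0.879 over 21 alternatives) and at 1.29 without Tfam KO replicate 3 (0.045).

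Levels of different genes can be compared on the authors' TPM scale, which divides counts by gene length. In control, the mean level fell in the order Igfbp2 (732.3 TPM), Ghr (162.3), Igf1 (147.6), Igfals (99.7), Igfbp1 (73.9), Stat5b (24.9), Igfbp3 (11.9), Socs2 (6.75) and Cish (6.47). Only Igfbp2 and Ghr, and Stat5b and Igfbp3, were neighbours whose ranges over the 6 libraries did not overlap. Igfbp1 stood at 0.1344 to 0.7107 TPM per TPM of Igf1 in control, at 2.655 to 11.56 in Mfn DKO, and at 4.067, 157.7 and 3.365 in Tfam KO. Igf1 was thus the more abundant RNA in all 6 control libraries and Igfbp1 in all 7 knockout libraries. Among the TPM of Igfbp1 to Igfbp7, Igfbp1 made up 1.05% to 5.02% in control, 10.6% to 35.9% in Mfn DKO, and 15.3%, 67.4% and 19.5% in Tfam KO. The summed TPM of these 7 genes was 2051 to 2383 in control, 3200 to 3917 in Mfn DKO, and 3092, 7402 and 2824 in Tfam KO. Differences in this sum between libraries depend on the scaling, since TPM is not TMM-scaled. The mean of Igfbp2 in Tfam KO, for example, was above control in TPM (888.5 against 732.3) but below it in CPM (481.6 against 631.2). In Mfn DKO the mean of Igfbp2 was above control on both scales (974.8 TPM and 682.3 CPM). Igfbp4 was the largest part in control, at 1125 to 1331 TPM, and Igfbp2 made up 28.0% to 37.9%.

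**Figure D3:**
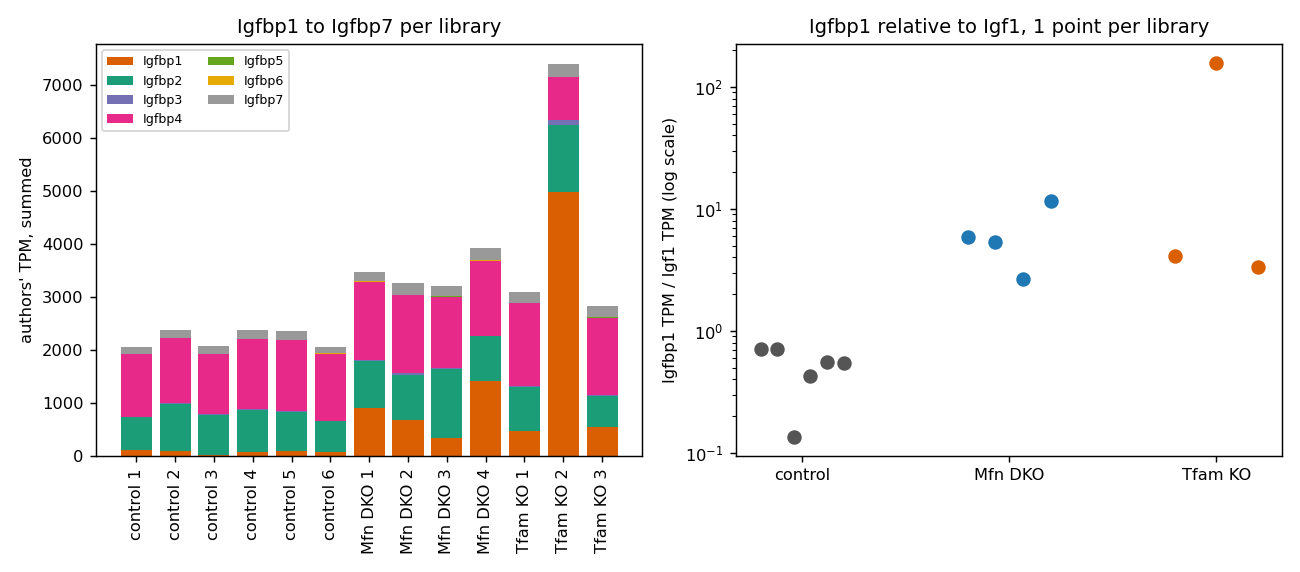
Left, the authors' TPM of Igfbp1 to Igfbp7 stacked for each of the 13 liver libraries; right, the ratio of Igfbp1 to Igf1 TPM (log scale), 1 point per library. The Igfbp1 part is 1.05% to 5.02% of the stack in control and 10.6% or more in all 7 knockout libraries, and the ratio lies below 1 in control and above 1 in both knockouts.

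The knockouts were also set against each other. Tfam KO against Mfn DKO gave 50 called genes of 17024, which is 0.294%, with 3480 at an unadjusted p under 0.05, and none of the 9 genes was among those called. The DESeq2 Wald test called 1087 genes and again none of the 9. Of the 9 log2 fold changes, 6 were below 0 and 3 above. The largest were Igfbp1 at 0.71 (SE 0.68, edgeR adjusted p = 0.565), Igf1 at -0.52 (SE 0.44, adjusted p = 0.515), Igfbp3 at 0.51 (SE 0.52, adjusted p = 0.592) and Igfbp2 (above). Without Tfam KO replicate 2, Igfbp1 was at -0.83, Igfbp3 at -0.58, Ghr moved from -0.12 to 0.26, Igfals from -0.23 to 0.18, and Igf1 to -0.04. Stat5b was at -0.42 (SE 0.22), Cish at -0.24 (SE 0.36) and Socs2 at 0.02 (SE 0.39). The SEs leave room for differences in either direction for most of these genes.

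Other genes of the axis were taken from a list of 42, which covers kinases and adaptors, further SOCS and IGFBP genes, phosphatases, receptors, IGFBP proteases and their inhibitors, and FGF21, a liver hormone known to make the liver resistant to growth hormone. Of these, 39 were tested, and Igf2, Igfbpl1 and Pappa2 had too few reads. In Mfn DKO against control 1 was called higher (Fgf21) and 1 lower (Sh2b1, an adaptor of JAK2, log2 fold change -0.34, SE 0.09, edgeR adjusted p = 0.0358, above the threshold in 12 of 21 alternatives), with a list median of 0.08. In Tfam KO 10 were called higher and 2 lower, with a list median of -0.04. The 12 of 39 are a share near the 29.3% of all genes called there, and the 2 of 39 in Mfn DKO lie below the 9.87% there, so neither count sets the list apart. Without Tfam KO replicate 2 these counts were 6 higher and 1 lower in Mfn DKO, and 5 higher and 1 lower in Tfam KO. With total-count scaling they were 3 and 0 in Mfn DKO, and 15 and 0 in Tfam KO.

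Fgf21 rose in every library of both knockouts. It was at 0.5018 to 5.136 CPM in control, 88.89, 46.84, 45.92 and 83.09 in Mfn DKO, and 54.28, 13.13 and 55.45 in Tfam KO. The rise was 28.3-fold in Mfn DKO (log2 fold change 4.82, SE 0.60, edgeR adjusted p = 0.00064) and 17.5-fold in Tfam KO (log2 fold change 4.13, SE 0.60, adjusted p = 0.000996), and both held in 21 of 21 alternatives. Jak2, the receptor's kinase, rose 1.60-fold in Tfam KO (log2 fold change 0.68, SE 0.15, adjusted p = 0.00587). The size of this rise leaned on Tfam KO replicate 2, at 40.45 CPM. Replicates 1 and 3 had 24.49 and 25.18 CPM, and control 17.04 to 20.55. With single libraries left out, the log2 fold change of Jak2 ran from 0.404 to 0.804. The largest log2 fold changes on the list in Tfam KO, those of Pappa and Stc2, rested on a single library. Pappa, a protease that cuts IGF binding proteins, was at 35.54 CPM in replicate 2 and at most 0.6304 in the other 12 libraries. Stc2, an inhibitor of that protease, was at 18.84 CPM there and at most 0.9855 elsewhere. Grb10, called with and without that library, is an adaptor that damps insulin and IGF1 receptors. It was at 158.1 CPM there, 18.2 in replicate 1 and 6.216 in replicate 3, against 3.422 to 6.349 in control. Without replicate 2, Pappa (log2 fold change 1.56, adjusted p = 0.357) and Stc2 (1.52, adjusted p = 0.069) were not called and Grb10 was still called at 1.401 (adjusted p = 0.0268). The 2 genes called lower in Tfam KO were Sh2b1 (log2 fold change -0.42, adjusted p = 0.00898) and Fgfr4, an FGF receptor (-0.86, SE 0.25, adjusted p = 0.0236), of which Fgfr4 is named after its values were seen. With total-count scaling Sh2b1 was at 4.2e-05, and Fgfr4 was not called without Tfam KO replicate 1 (adjusted p = 0.092) or 2 (0.101).

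A short list of FOXO1 target genes held Igfbp1, Ppargc1a, Pck1, G6pc, Irs2 and Insr. In each knockout, 2 of the 6 were called, both higher: Igfbp1 and Ppargc1a, a coactivator of mitochondrial and fasting genes. Of all genes, 5.23% were called higher in Mfn DKO and 18.1% in Tfam KO, and with 6 genes the count is a description only. Ppargc1a rose 1.58-fold in Mfn DKO (log2 fold change 0.66, SE 0.18, edgeR adjusted p = 0.0397) and 1.54-fold in Tfam KO (0.63, SE 0.20, adjusted p = 0.0321). These calls were not stable to leaving out a library, being lost in 8 and 6 of 21 alternatives (adjusted p up to 0.146 and 0.177). The gluconeogenic genes Pck1 and G6pc were at 0.29 (SE 0.35) and -0.04 (SE 0.34) in Mfn DKO and at -0.68 (SE 0.39) and -0.84 (SE 0.39) in Tfam KO, none of them called; both are named after their values were seen. The list medians were 0.45 and 0.14.

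**Figure D4:**
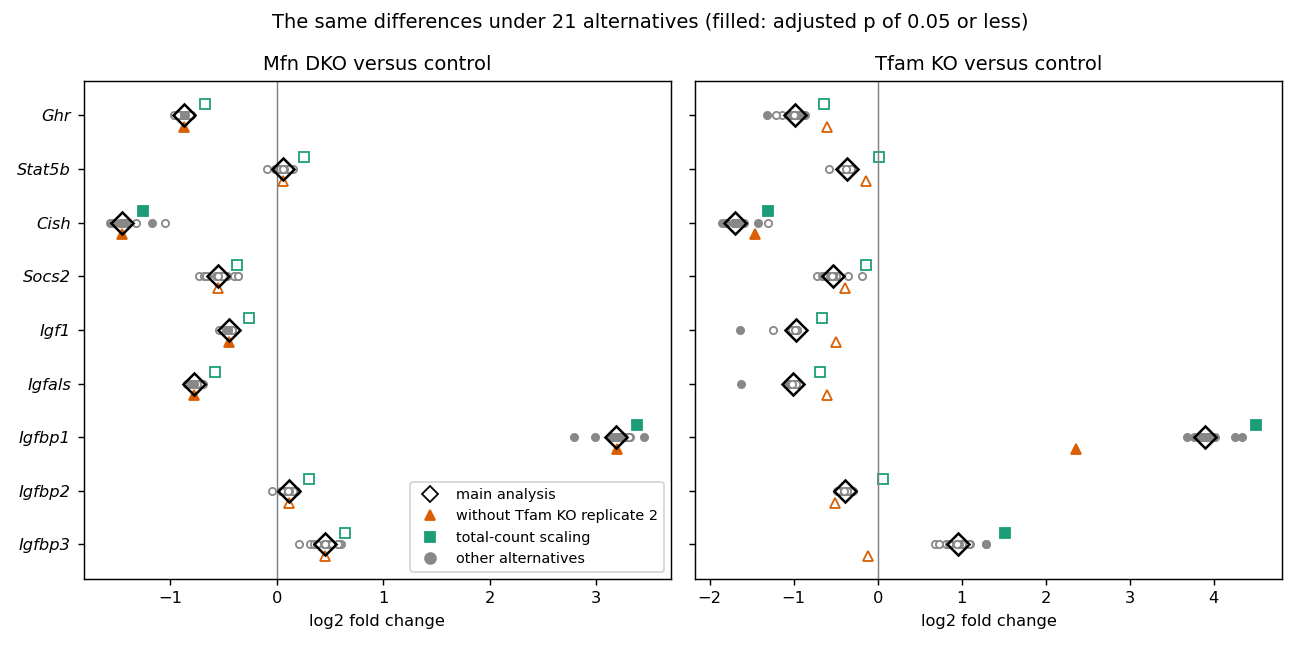
Log2 fold changes of the 9 genes against control (horizontal axes) in the main analysis (diamonds) and under 21 alternatives, with the fit without Tfam KO replicate 2 as triangles, total-count scaling as squares and the others as circles; filled symbols mark called differences. For Mfn DKO the triangles of Ghr, Igf1 and Igfals are filled at almost the main value, while for Tfam KO the triangle of Igfbp1 lies at 2.36 against 3.90 and that of Igfbp3 below 0.

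The pulsing of growth hormone differs between the sexes in rodents, and STAT5B passes the difference on to sex-biased liver genes. The liver labels give no sex, but the libraries fell apart by Xist, the RNA of the inactive X chromosome: 7 had 380.3 CPM or more (3 control, 2 Mfn DKO and 2 Tfam KO) and 6 had 0.7045 CPM or less (3, 2 and 1). Ddx3y, a gene of the Y chromosome, was at 88.3 to 104.7 CPM in those 6 and at most 0.6054 CPM in the 7. High Xist thus went with the RNA pattern of females and low Xist with that of males. A term for high Xist was fitted beside the group means, a comparison added after the data were seen. It called 3.04% of genes, 1.54% higher and 1.5% lower with high Xist. Among 16 genes known as male-biased in liver, 15 were called lower with high Xist and all 16 were below 0 (median log2 fold change -4.13), and among 18 known as female-biased, 15 were called higher and all 18 were above 0 (median 7.499), against a median of 0.03 over all genes. None of the 9 axis genes was called by edgeR in this comparison, where 3186 genes had an unadjusted p under 0.05, and the DESeq2 Wald test called 1 of them, Igfbp3.

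Among the control libraries, 3 with high and 3 with low Xist, Ghr, Igfals and Igfbp3 did not overlap between the sets, and the other members did. With 3 libraries on each side genes can separate by chance. The share of all genes that separated in this way was not determined. Ghr was at 564.1 to 591.7 CPM in the 3 with high Xist and 765.4 to 871.1 in the 3 with low Xist. Igfals was at 160.0 to 185.7 against 111.0 to 131.7, and Igfbp3 at 20.48 to 26.19 against 8.636 to 12.43. Over all groups the log2 fold changes of high against low Xist were -0.45 for Ghr (SE 0.22, edgeR adjusted p = 0.288), 0.33 for Igfals (SE 0.26, adjusted p = 0.55) and 0.98 for Igfbp3 (SE 0.30, adjusted p = 0.106). Without Tfam KO replicate 2, all 3 passed: Ghr at -0.35 (adjusted p = 0.0452, range 0.0212 to 1.0 over 19 alternatives), Igfals at 0.46 (0.0135, range 0.0135 to 1.0) and Igfbp3 at 0.71 (0.0406, range 0.00761 to 1.0). Without Tfam KO replicate 3, Ghr and Igfbp3 passed. Over all genes these fits called 1766 and 1383, in that order, against 517 in the main fit.

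The genotype differences of Ghr, Igf1, Igfals, Igfbp1 and Cish kept their direction in both sets of libraries. For Ghr the log2 ratio of Mfn DKO to control means was -0.84 with high Xist (2 against 3 libraries) and -0.89 with low Xist (2 against 3). For Tfam KO it was -0.88 (2 against 3) and -0.93 (1 against 3). For Cish the 4 ratios were -1.28, -1.59, -1.51 and -1.74 in the same order. For Igfbp1 they were 3.92, 2.46, 4.74 and 1.81, so the rise was larger among the libraries with high Xist in both knockouts, a difference that was not tested. Igfals had -0.95, -0.55, -1.22 and -0.77, and Igf1 -0.61, -0.30, -1.07 and -0.84. The Tfam KO values with high Xist are means of replicates 2 and 3. From replicate 3 alone, a comparison added after the data were seen, they were -0.25 for Ghr, -0.24 for Igf1, -0.495 for Igfals, -1.15 for Cish and 2.97 for Igfbp1. Socs2 did not keep 1 direction: it had -0.84 and -0.14 in Mfn DKO, and -1.01 and 0.15 in Tfam KO. Igfbp2 (-0.095 and 0.299) and Stat5b (0.27 and -0.136) also changed direction in Mfn DKO. In Tfam KO they had -0.424 and -0.345, and -0.253 and -0.406. Igfbp3 was above 0 in all 4 ratios (0.199, 0.908, 0.82 and 0.629). From Tfam KO replicate 3 alone, Igfbp3 was at -0.642, Stat5b at 0.128 and Igfbp2 at -0.692. With the Xist level as a covariate, 3 of the 9 genes were called in Mfn DKO, Ghr (log2 fold change -0.87, adjusted p = 0.0433) joining Igfbp1 and Cish, and 4 in Tfam KO. Of all 17024 genes, that fit called 2181 in Mfn DKO and 5121 in Tfam KO, against 1681 and 4992 in the main fit.

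Between genotypes edgeR called 0 of 16 male-biased genes in either knockout. Of 18 female-biased genes it called 0 in Mfn DKO and 1 in Tfam KO, where 9.87% and 29.3% of all genes were called. That gene was Tox, which rose in Tfam KO (log2 fold change 1.12, SE 0.28, edgeR adjusted p = 0.0111). The median log2 fold change of the male-biased genes was -1.25 in Mfn DKO and -1.96 in Tfam KO. Of these 16, 12 lay below 0 and 4 above in Mfn DKO, and 15 below and 1 above in Tfam KO. The medians of the female-biased genes were -1.46 and -0.96, and those of all genes 0.02 and 0.03. Of the 18 female-biased genes, 12 lay below 0 and 6 above in Mfn DKO, and 15 below and 3 above in Tfam KO. This fit held no Xist term. Control had 3 libraries with high and 3 with low Xist, Mfn DKO 2 and 2, and Tfam KO 2 and 1. In Tfam KO, genotype and Xist are thus partly mixed in these medians. When the fit took Xist into account, 5 of the 16 male-biased genes were called lower in Mfn DKO and 1 in Tfam KO. The calls of the female-biased genes in that fit are not given here. In that fit 979 of all 17024 genes were called lower in Mfn DKO and 1970 in Tfam KO. The 1 of 16 in Tfam KO lies below that share. Among the libraries with low Xist, Hsd3b5, a steroid-metabolizing enzyme of male liver, was at 295.1, 320.2 and 197.8 CPM in control, 30.07 and 35.48 in Mfn DKO and 66.06 in Tfam KO. Mup20, a major urinary protein, was at 4196, 5241 and 3193 CPM in control, 1386 and 1677 in Mfn DKO and 1490 in Tfam KO. Among the libraries with high Xist, Cux2, a female-biased transcription factor under growth hormone control, was at 55.44, 66.49 and 44.27 CPM in control, 7.961 and 23.25 in Mfn DKO and 1.104 and 38.64 in Tfam KO. In these rows no knockout library reached the control range. Over all groups Cux2 was higher with high Xist (log2 fold change 5.86, SE 0.73, adjusted p = 0.000997), and Socs7, a further SOCS gene, was lower (-0.43, SE 0.09, adjusted p = 0.0229).

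The genes whose deviations most resembled those of 5 further members are given as a description over 13 libraries. They were Haus6 for Igfbp2 (0.915), Cyp4f16 for Igfbp3 (0.954), Arhgef17 for Socs2 (0.921), Cep85 for Cish (0.843) and Fpgs for Stat5b (0.954). Among pairs of members, Ghr and Igfbp3 deviated in opposite directions (r = -0.88), as did Stat5b and Igfbp3 (r = -0.80), and all these values share Tfam KO replicate 2.

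Markers of other liver cells were present in all groups, with every marker above 3 counts in at least 1 library of each group. The summed CPM of 8 Kupffer cell and macrophage markers was 444.6 to 821.8 in control, 586.6 to 1348 in Mfn DKO and 289.2 to 838.2 in Tfam KO. For 7 cholangiocyte markers the sums were 32.83 to 69.55, 55.12 to 103.8 and 27.28 to 127.9, the highest in Tfam KO replicate 2. For 8 leukocyte markers they were 14.47 to 32.77, 22.57 to 41.64 and 13.97 to 35.64. Endothelial sums (8 markers) were 270.2 to 310.4, 268.9 to 402.0 and 266.9 to 326.8, and stellate cell and fibroblast sums (8 markers) 278.8 to 359.1, 338.1 to 406.2 and 256.9 to 329.9. The part of these differences in the values of the 9 genes was not tested.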

How the data were processed

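Total RNA of flash-frozen mouse liver, treated with DNase, was sequenced as 151 bp read pairs on a NovaSeq-6000, per the labels' protocols. The submitters' processing notes name GRCm38, STAR 2.6.1b, RSEM 1.3.1, featureCounts, FastQC, MultiQC and DESeq2; which program made the deposited counts is not given in the sources used here. The authors deposited raw counts, TPM and CPM per gene and library, per the file headers; the deposited CPM equalled count over total, and the deposited TPM divided counts by a fixed gene length. Gene positions come from GENCODE M21 (GRCm38), which held 55227 of the 55487 identifiers.

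Counts of all 13 livers were fitted together, 1 mean per group, with edgeR 4.0.16 in R 4.3.3 (TMM, filterByExpr, quasi-likelihood test, Benjamini-Hochberg adjustment over 17024 genes, two-sided). The SE is the log2 fold change over the square root of F. Correlations used 100000 permutations of libraries within groups, two-sided. Alternatives were DESeq2 1.42.0 size factors and Wald test, no filter, at least 10 counts in every library, each library left out, a replicate block, Xist as a covariate and only the groups compared. Total-count scaling and the Xist comparisons, with libraries divided at 100.0 CPM, were chosen after seeing the data. On simulated data for 17024 genes with 200 changed, 63% of 2-fold and 90% of 4-fold changes were recovered in Mfn DKO against control, and 51% and 86% in Tfam KO, with 4.97% and 1.44% of calls false.

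The members, lists and tests were chosen with earlier results of these data known. Named were all members, at most 5 called genes of the further axis list and 3 of the male-biased, female-biased and FOXO1 lists with the smallest adjusted p per comparison, the targeted genes, Xist, and the genes most like each member, of which the first is given for 8 members; that for Igfbp1 is not reported here. The islet libraries of the series were not used here. No 2 livers were near-identical (highest r of log2 CPM 0.9856). Reads carry no molecular identifiers, so precision from counts covers counting error only.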

Additional observations from a re-analysis of the deposited data

Results flagged for a closer look

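Dixon's test was applied to each of the 9 genes in the control and Mfn DKO groups, 18 gene and group pairs in all, and marked 2 libraries as far from the rest of their group; about 1 in 20 groups is marked by chance. Igf1 in Mfn DKO replicate 1 was at 593.5 CPM, above the other 3 libraries of its group (460.0 to 473.5) and inside the control range. Igfbp2 in Mfn DKO replicate 3 was at 897.9 CPM, above the other 3 (597.8 to 630.5) and above every control. Groups of 3, and so Tfam KO with its replicate 2, are not tested by this rule.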

How the results depend on the processing

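The Igfbp1 and Cish differences from control kept their direction in all 21 alternatives. The Tfam KO calls of Ghr and Igfals were lost in 5 and 12 of the 13 fits that left out 1 library. Calls against control gained by leaving out a library, for Ghr, Igf1, Igfals and Igfbp3, came without Tfam KO replicate 2 or 3. Each of these genes also gained a call in a setting that left out no single library, such as total-count scaling for Igfbp3. Genes called when each library in turn was left out numbered 686 to 3379 in Mfn DKO against control, 2504 to 7330 in Tfam KO against control, 24 to 4204 in Tfam KO against Mfn DKO and 236 to 1766 for high against low Xist, with 1 to 5, 2 to 6, 0 and 0 to 3 of the 9 genes among them. Where a group is left with few libraries, its spread is assumed to be that of the others. The deviations of Cish and Socs2 then had r of -0.105 to 0.371 (below 0 without control replicate 1, -0.105, or 6, -0.043), Ghr and Igf1 0.209 to 0.897, and Igf1 and Igfals 0.674 to 0.938. Igf1 and Igfals reached r = 0.984 once Xist was a covariate.

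The DESeq2 Wald test called 2870 genes in Mfn DKO against control, 1087 in Tfam KO against Mfn DKO, and 1473, 1 member among them, for Xist. Without a filter the Xist count was 786, with 1 member. With at least 10 counts in every library, Tfam KO against Mfn DKO gave 27. Total-count scaling gave 8154 in Tfam KO against control and 1226 in Tfam KO against Mfn DKO. Fits of only the 2 groups compared gave 4338 (5 members) in Mfn DKO, 3228 (2 members) in Tfam KO and 7 between the knockouts. Replicate numbers are shared between groups, but deviations of same-numbered libraries correlated at -0.343 to 0.35 (median 0.0875), and in 7 of 20 pairings a library correlated best with its own number, so the numbers were not taken as pairs. With a replicate block the counts were 169 (0 members), 395 (1 member, Igfbp1), 6 and 6 for Xist.

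The log2 fold changes that turned sign were small or not called, except that of Sh2b1 in Tfam KO (4.2e-05 with total-count scaling). That scaling also turned Igfbp2 (0.065), Stat5b (0.02) and Mfn2 (0.122) in Tfam KO, Tfam in Mfn DKO (0.099) and Ghr between the knockouts (0.037). Socs2 between the knockouts was at -8.4e-05 with at least 10 counts, -0.057 with Xist as a covariate and -0.131 to 0.167 with libraries left out (-0.019 and -0.131 without Mfn DKO replicates 2 and 3, -0.087 and -0.043 without Tfam KO replicates 1 and 3). With libraries left out, Ghr (-0.431 to 0.261), Igfals (-0.836 to 0.175), Igfbp1 (-0.833 to 1.146) and Igfbp3 (-0.575 to 0.844) between the knockouts also turned, as did Igfbp3 (-0.119 to 1.288) and Mfn1 (-0.039 to 0.147) in Tfam KO, and Igfbp2 (-0.048 to 0.176) and Stat5b (-0.092 to 0.154, also -0.012) in Mfn DKO. For Xist, Igf1 ran from -0.366 to 0.107 (0.025 without Mfn DKO replicate 1, 0.094 with the block) and Igfbp1 from -0.147 to 0.574 (-0.044 and -0.0072 without Tfam KO replicate 2 and Mfn DKO replicate 4). The cause was not tested.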
